A study of Mus musculus with 13 samples.

Results

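The H34 and H3 lines are 2 edited lines of C2C12, a mouse myoblast line that fuses into myotubes when serum is lowered. Both lack hotspot H3, a genomic region that the submitters call a hotspot, and the H34 line also lacks hotspot H4. All edits were made with CRISPR/Cas9. Each line was profiled once, 48 h after growth medium (DMEM with fetal bovine serum) was replaced by differentiation medium (DMEM with horse serum, both with penicillin and streptomycin), for acetylation of histone H3 at lysine 27 (H3K27ac), and these 2 libraries are compared here out of 12 analysed and 13 described. Peaks were taken from the authors' lists where their −log10 p was at least 4, and chromosome 14 was set aside because its share of the H34 peaks stood apart from every other library. This left 125492 peaks in the H34 line and 98405 in the H3 line. Merging overlapping peaks gave 139128 regions, of which 59759 had a peak in both lines (shared), 55245 in the H34 line alone (H34-specific) and 24124 in the H3 line alone (H3-specific).

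The sources used here give no positions for the hotspots, so the deletions themselves could not be checked in the lists, and with no annotation of the build the C2C12 identity was not checked against marker genes. The H34 line was made by deleting H3 in cells that already lacked H4, so it does not descend from the H3 line, and no line lacking H4 only is among the samples. Whether each line is 1 clone is not given in the labels. The other libraries used as reference were unedited C2C12 cells sampled at -24 h (before the medium change), 0 h, 6 h, 12 h, 24 h, 48 h and 72 h, and lines at 48 h lacking hotspot H1 (H1), hotspots H2 and H3 (H23) or MyoD (Myod1 knockout). Each group had 1 library, so no test between lines was run. Intervals are 95% Wilson intervals on counts of regions. They cover counting error only, since neighbouring regions are not independent and the spread between repeat libraries is unknown.

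H3K27ac is laid down at active promoters and enhancers by the acetyltransferases p300 and CBP. During myogenesis MyoD, a bHLH transcription factor that binds E-box sequences, is present in proliferating myoblasts and helps to activate muscle enhancers once growth factors are withdrawn. Enhancers that serve proliferation and the undifferentiated state lose the mark over the same period, and enhancers of contractile genes gain it. A region was therefore called myoblast-stage if it overlapped a peak at both -24 and 0 h and at neither 24 nor 72 h in unedited cells, and late if it showed the reverse. No 48 h list entered the rule for these 2 classes, although the merged 48 h peaks set the extent of each region tested. The class names describe overlap with the lists in the rule, and not a measured loss or gain of the mark.

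The H34 line had many more line-specific regions than the H3 line. H34-specific regions were 39.7% of the 139128 and H3-specific regions 17.3%. The H34 list was longer, so the comparison was repeated with the 98405 strongest peaks of each line. H34-specific regions were then 29.4% and H3-specific regions 24.6% of 119216. With the 30000 strongest peaks of each line the shares were 19.1% and 18.5%. Taking equal numbers brings the shares of the lines together by construction, so it cannot show whether the excess holds among strong peaks. At a −log10 p of at least 6, with list lengths left unequal, the shares were 35.5% in H34 and 17.9% in H3.

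Most line-specific regions were weak and narrow. Their median width was 224 bp in the H34-specific and 196 bp in the H3-specific set, against 716 bp for shared regions. A shared region joins peaks of both lists, so it is wider in part by construction. Single peaks of −log10 p of at least 4, chromosome 14 included, had a median width of 331 bp in H34 and 326 bp in H3. Of the H34 regions with a highest −log10 p of 4 to 6, 80.0% had no H3 peak, against 29.8% at 10 to 20 and 3.10% at 20 to 50. Of 5107 H34 regions at 50 or more, 2 lacked an H3 peak. The H3 line ran the same way, with 59.5% of its regions specific at 4 to 6 (2598 of 18518 at 10 to 20) and 1.52% at 20 to 50, and with 4 of 5733 specific at 50 or more. Nearly all of the strongest acetylated regions were thus in both lists.

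The threshold of 4 removed 2297 H34 peaks (1.76%) and 1229 H3 peaks (1.19%). With so few peaks below it, the deposited lists say little about signal under the threshold: 99.4% of the H34-specific regions had no H3 peak in the whole list and 98.5% of the H3-specific regions no H34 peak. At its edge the lowest value kept was 4.002 in H34 and 4.008 in H3, and the highest removed was 3.996 in each.

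Regions specific to the H34 line had a higher ratio of myoblast-stage to late regions than all regions did. At −log10 p of at least 4 this came with a lower late share and not with a higher myoblast-stage share. Of the 55245, 1762 were myoblast-stage (3.19%, 95% interval 3.05 to 3.34) and 501 were late (0.907%, 0.831 to 0.989), a ratio of 3.52. Over all 139128 regions 3.39% were myoblast-stage and 1.47% late, a ratio of 2.30. At this threshold the H34-specific share of myoblast-stage regions was slightly below that of all regions and the late share was lower than theirs. Shared regions stood at 4.20% and 2.02%.

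Regions specific to the H3 line were nearly balanced between the classes. Of the 24124, 440 were myoblast-stage (1.82%, 1.66 to 2.00) and 338 late (1.40%, 1.26 to 1.56), a ratio of 1.30. This came with a myoblast-stage share below that of all regions (3.39%) and not with a higher late share. The interval of the late share held that of all regions (1.47%). With equal numbers of peaks the late share was 1.59% both in the H3-specific set and over all regions. Of the regions in either class, 77.9% (76.1 to 79.5) of the H34-specific ones were myoblast-stage, against 56.6% (53.0 to 60.0) of the H3-specific and 67.5% (66.0 to 69.0) of the shared ones. With equal numbers of peaks the ratio was 3.83 in the H34-specific set (1318 to 344) and 1.26 in the H3-specific set (588 to 465), where 3.57% of all regions were myoblast-stage and 1.59% late. Among the 30000 strongest peaks of each line it was 3.27 and 1.17. There 6.96% of H34-specific regions were myoblast-stage and 2.13% late, 4.79% and 4.10% of H3-specific ones, and 3.68% and 1.86% of all 34289 regions. In that selection both sets were above all regions in both classes, except that the interval of the H34-specific late share (1.80 to 2.51) held the share of all regions. The ratio was higher in the H34-specific set under all 13 settings run.

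**Figure D1:**
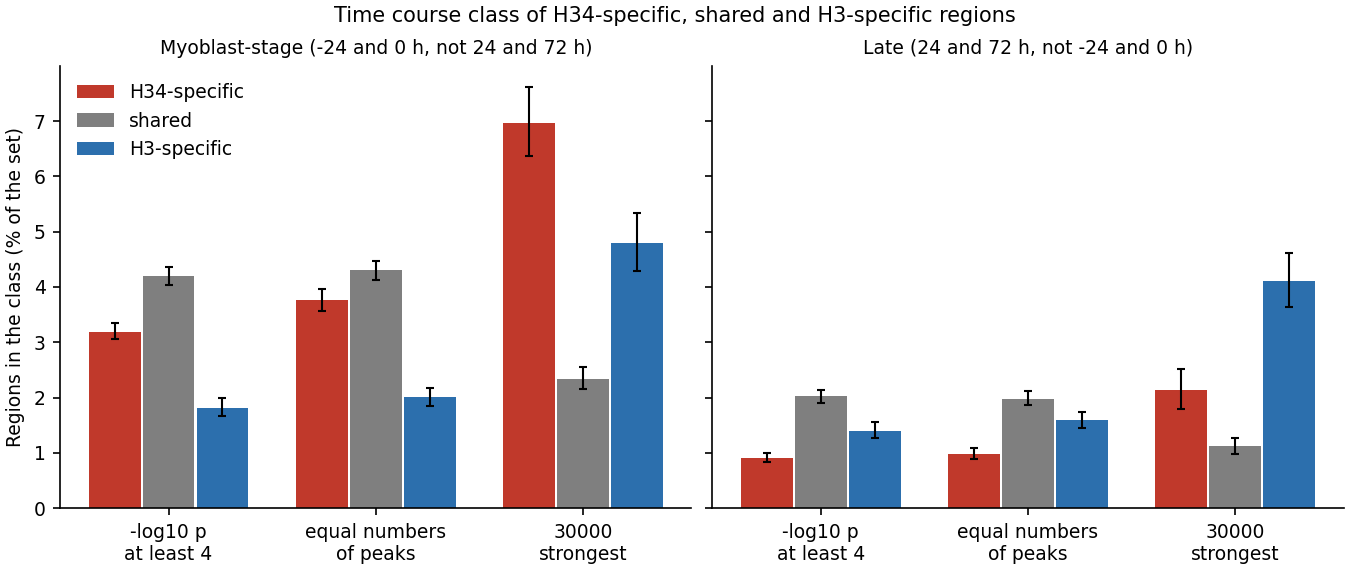
Share of H34-specific, shared and H3-specific regions that were myoblast-stage (left) or late (right), as a percentage of each set, for 3 ways of choosing peaks. Bars are shares and lines their 95% Wilson intervals. In each selection the H34-specific bar is above the H3-specific one on the left (3.19% against 1.82% at −log10 p of at least 4) and below it on the right (0.907% against 1.40%).

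The classes cover a small part of either set. Of the H34-specific regions 69.3% overlapped no peak at any of the 6 times, and 3.59% overlapped one at all 6. For the H3-specific regions these shares were 76.1% and 1.51%. Shared regions overlapped a peak at all 6 times in 36.5% of cases and at none in 26.8%. Most line-specific regions therefore overlapped no called peak of these 6 lists, and the stage comparison rests on the minority that did. The 6 lists held 69251 (72 h) to 101331 (12 h) peaks, against 130473 in the deposited H34 list. With depth unknown, a missing peak does not show that acetylation was missing.

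Time by time, the gap between the sets was widest at the start of the course. At -24 h 7194 of 55245 H34-specific and 1518 of 24124 H3-specific regions (6.29%) had a peak, and at 0 h 16.4% and 10.8%. The difference narrowed to 11.4% against 8.07% at 24 h and 10.2% against 9.06% at 72 h. Both sets peaked at 12 h, the longest list of the course, at 20.7% and 15.1%. With equal numbers of peaks the shares were 15.9% against 7.34% at -24 h and, at 72 h, 12.1% against 10.4%, which is the same narrowing.

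**Figure D2:**
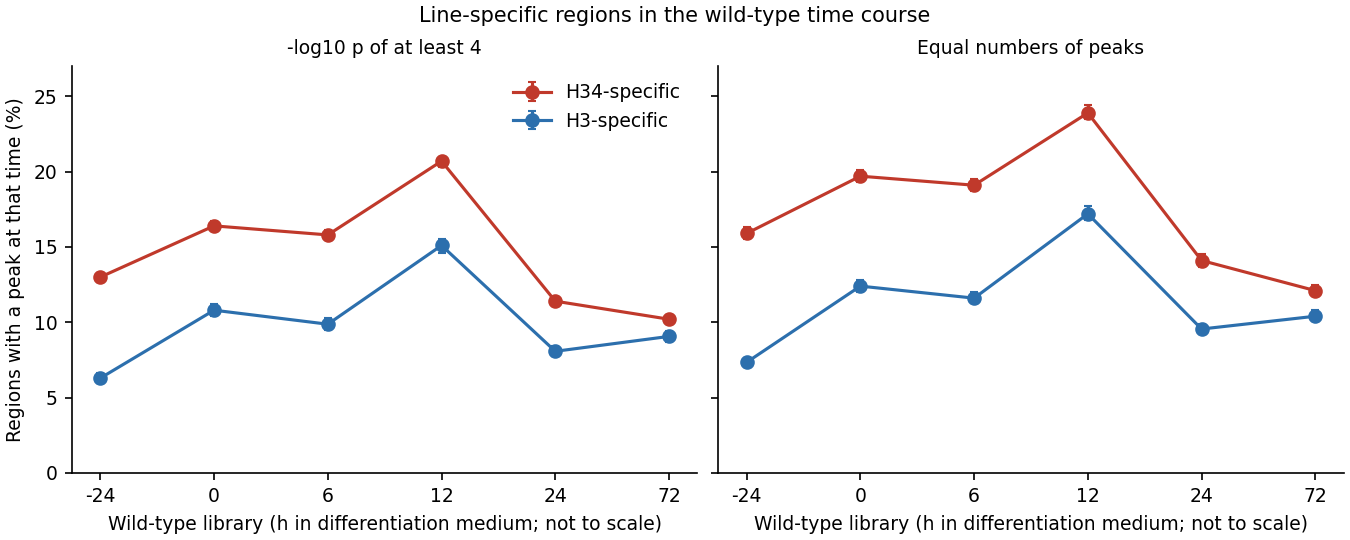
Percentage of H34-specific and H3-specific regions that overlapped a peak in each wild-type library, from -24 to 72 h in differentiation medium, with peaks of −log10 p of at least 4 (left) and equal numbers of peaks (right). Points are shares with 95% Wilson intervals. The lines lie far apart at -24 h (7194 of 55245 against 1518 of 24124 regions) and close at 72 h (10.2% against 9.06%).

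The class shares varied with peak strength, and did so differently in the 2 lines. Among H34-specific regions the myoblast-stage share rose from 2.18% (2.00 to 2.38) at a −log10 p of 4 to 6, through 3.09% at 6 to 10, to 6.12% (5.61 to 6.66) at 10 to 20 and 6.38% (4.62 to 8.74) at 20 to 50. Their late share was 0.762% (0.657 to 0.885) in the lowest bin and 1.28% (0.619 to 2.61) in the highest of these. In H3-specific regions it was the late share that rose. It was 0.755% (0.598 to 0.953), 1.35%, 3.35% (2.72 to 4.11) and 8.02% (5.19 to 12.2) over the same bins, while the myoblast-stage share was 1.42% to 2.11%.

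The strongest of these bins were small, at 549 H34-specific regions with 35 myoblast-stage and 7 late, and 237 H3-specific regions with 5 and 19. Shared regions of 20 to 50 gave the level to set these against. In the H34 list 3.34% of them were myoblast-stage and 1.33% late, and in the H3 list 2.83% and 1.74%. In the bins of 4 to 6 and 6 to 10 shared H34 regions were myoblast-stage in 3.07% and 4.56%, more than the H34-specific regions there, and at 10 to 20 in 6.05%, close to them. Shared H3 regions were late in 1.73% at 4 to 6 and 2.18% at 6 to 10, more than the H3-specific regions there (0.755% and 1.35%). At 10 to 20 they were late in 2.79%, inside the interval of the H3-specific share (2.72 to 4.11). Only in the strongest bin was the H34-specific set clearly above the shared regions in myoblast-stage share and the H3-specific set above them in late share.

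**Figure D3:**
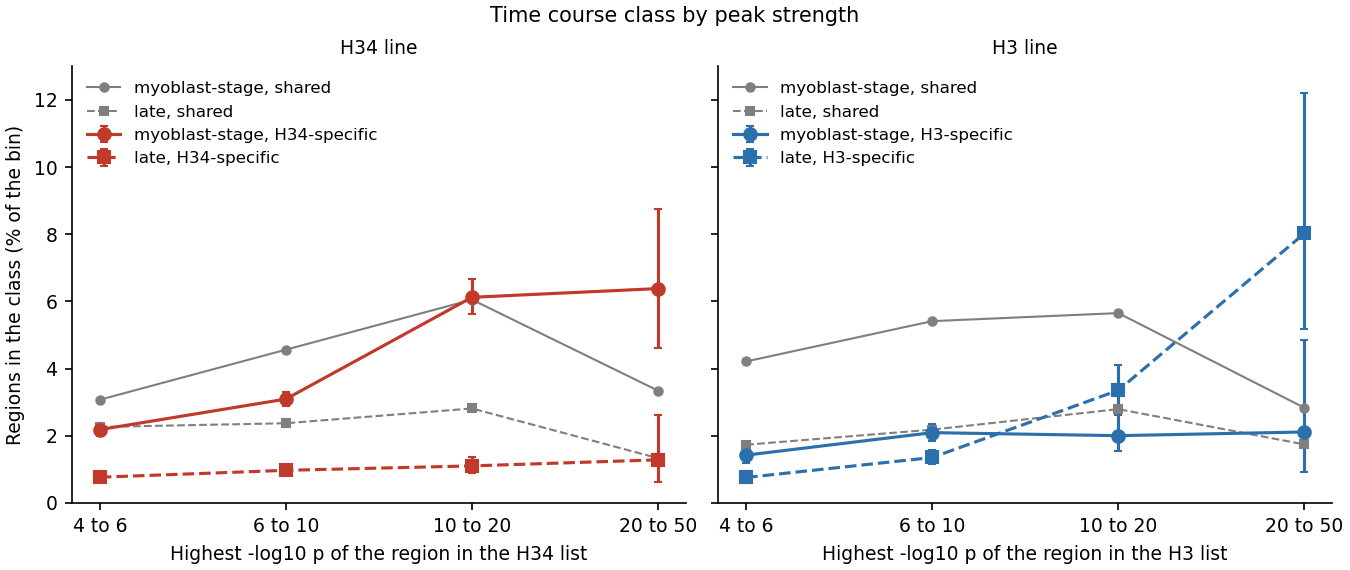
Share of regions that were myoblast-stage (circles, solid) or late (squares, dashed) by the highest −log10 p of the region in the H34 list (left) or the H3 list (right), for line-specific regions (colour, with 95% Wilson intervals) and shared regions (grey). The myoblast-stage share of H34-specific regions reaches 6.38% and the late share of H3-specific regions 8.02% in the bin from 20 to 50.

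Among shared regions the ranks in the 2 lines differed weakly by class. Each shared region was given its percentile of −log10 p among the 59759 shared regions, within each line. For late regions the median of H34 minus H3 was -4.48 percentile points (quartiles of H34 minus H3 -19.2 to 10.6), and 41.4% (38.7 to 44.2) of the 1209 ranked higher in H34. Myoblast-stage regions ranked higher in H34 by a median of 2.96 points (quartiles -11.0 to 16.5), in 55.2% (53.3 to 57.2) of 2509. All shared regions together had a median difference of -0.16 points. The quartiles were far wider than these medians, so the ranks of single regions moved in both directions in each class.

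Read from the time course instead of from the lines, H34 had the higher share of myoblast-stage regions in each selection, and the order at late regions depended on list length. Regions were made again from the peaks at -24, 0, 24 and 72 h alone. Of 8971 myoblast-stage regions, 66.7% (65.7 to 67.6) had a peak in H34 and 49.8% (48.7 to 50.8) in H3. For reference the share was 66.4% in H23, 52.8% in H1, 44.9% in unedited cells at 48 h and 19.1% in the Myod1 knockout. Over all 112679 time course regions the shares were 68.3% in H34, 58.4% in H3, 67.2% in H23, 67.2% in H1, 52.7% in unedited cells and 32.3% in the Myod1 knockout. At myoblast-stage regions H34 was thus slightly below its own level over all regions, and H3 further below its own. The lists differ in length, and with equal numbers the myoblast-stage shares were 61.2% in H34 and 49.8% in H3, against 64.1% and 58.4% over all regions.

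A peak in H34 alone was found at 21.4% of the myoblast-stage regions and a peak in H3 alone at 4.49%, against a background of 14.7% and 4.83% over all time course regions. With equal numbers the shares were 17.5% and 6.09%, against 12.1% and 6.41%. Among the 30000 strongest peaks they were 11.8% and 6.31%, against 9.04% and 6.92%. The H34-alone share was above its background in each selection, and the H3-alone share was slightly below its own. The background includes the 29942 regions with a peak at all 4 times, which lower it. There, at −log10 p of at least 4, H34 alone was 6.63% and H3 alone 0.928%.

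Of 3911 late regions, 63.3% (61.7 to 64.8) had a peak in H34 and 57.7% (56.1 to 59.2) in H3, against 68.3% and 58.4% over all regions. With equal numbers of peaks the shares were 56.3% and 57.7%, against 64.1% and 58.4%, and among the 30000 strongest 24.4% and 29.0%, against 38.7% and 36.6%. The order of the lines at late regions thus turned with list length. In the first 2 selections H34 was below its level over all regions while H3 was near its own. Those levels again include the regions with a peak at all 4 times. A peak in H3 alone was found at 9.20% of late regions with −log10 p of at least 4 and at 490 of 3911 with equal numbers, above the backgrounds of 4.83% and 6.41%. A peak in H34 alone was found at 14.8% and 11.2%, near its backgrounds of 14.7% and 12.1%, which the regions with a peak at all 4 times lower. The H1 line had the highest share of late regions, at 77.3%.

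Of the 1762 myoblast-stage regions specific to H34, 63.1% had a peak at 6 h and 64.6% at 12 h, and their median width was 294 bp. These shares were below those of all myoblast-stage regions, at 69.8% and 73.0%, and those specific to H3 were at 64.5% and 71.1%. Of the 501 late ones, 41.7% had a peak at 6 h and 68.7% at 12 h. The 338 late regions specific to H3 were at 35.2% (30.3 to 40.4) and 66.0% (60.8 to 70.8).

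Comparison with the other lines at 48 h showed where else each set occurred. H34-specific myoblast-stage regions overlapped an H23 peak in 57.5% (55.2 to 59.8) of cases, and the share was 38.8% in H1, 36.2% in unedited cells and 11.2% in the Myod1 knockout, while 22.2% were in none of these 4 libraries. For all H34-specific regions the shares were 42.6%, 30.3%, 17.6% and 6.29%, with 41.0% in none. The deposited lists of H23, H1, unedited cells and the Myod1 knockout covered 81.5, 70.6, 45.4 and 18.3 Mb, the same order as these shares. The effect of list length on the shares was not tested. H23 was the library that most often shared the myoblast-stage regions of either set, at 72.3% of the H3-specific ones and 78.6% of all myoblast-stage regions, so this is not a trait of the H34-specific set. Over all myoblast-stage regions the share in unedited cells at 48 h was 52.5%, against 62.4% of all late regions. The name myoblast-stage thus describes the lists that set the rule and does not show that the mark was lost by 48 h. The lists at -24, 0, 24 and 72 h covered 26.8, 34.9, 24.5 and 24.9 Mb, against 45.4 Mb in unedited cells at 48 h. How far list length set the class was not tested.

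Late regions most often had a peak in H1. Of the 338 specific to H3, 87.3% (83.3 to 90.4) had a peak in H1, 50.6% (45.3 to 55.9) in unedited cells, 48.2% in H23 and 7.99% without Myod1, and 5.62% were in none of the 4. Late regions specific to H34 had a peak in H1 in 64.5% (60.2 to 68.5) of cases, in H23 in 48.7% and in wild-type cells in 41.1%. Over all 2048 late regions the shares were 86.0% in H1, 72.6% in H23 and 62.4% in unedited cells. The H3-specific late regions were thus at the level of all late regions in H1, and the H34-specific ones below it.

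**Figure D4:**
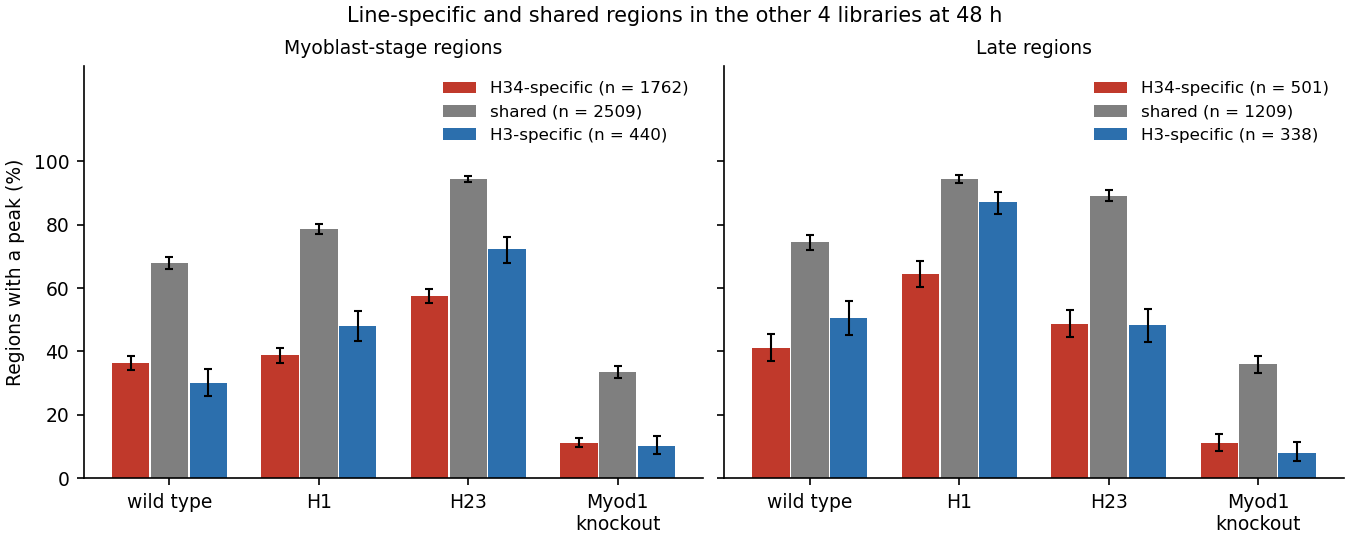
Percentage of myoblast-stage (left) and late (right) regions with a peak in the other 4 libraries at 48 h, for H34-specific, shared and H3-specific regions. Bars are shares and lines their 95% Wilson intervals. Shared regions are highest in every library, and the late H3-specific bar reaches 87.3% in H1.

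Regions that the other lines agree on give a stricter view of absence. In 1735 regions H3, wild type, H1 and H23 all had a peak and the deposited H34 list had none. In 3992 regions the deposited H3 list had none while H34 and the other 3 had one. Late regions were 5.13% of the first group and 2.15% of the second, and myoblast-stage regions 4.21% and 5.89%. The 36054 regions with a peak in all 5 were late in 2.21% and myoblast-stage in 3.89%. The Myod1 knockout had a peak at 11.6% of the regions missing in H34, 1038 of the 3992 missing in H3 and 65.5% of those in all 5. Median widths rose in the same order, at 284, 363 and 1014 bp, and the effect of width on these shares was not tested.

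The regions missing in H34 were led by the 600 bp of chr6:53808498-53809097, with a −log10 p of 51.1 in H3. A neighbour at chr6:53809211-53810538 was at rank 4, with 44.8. Wild-type peaks at 0, 24 and 72 h overlapped both, and the Myod1 knockout had neither. The regions missing in H3 were led by chr19:34681504-34682315, with a −log10 p of 78.6 in H34 and a peak at 12 and 72 h and in the Myod1 knockout. All coordinates are in mm9, counted from 1, and no gene is named from them since no annotation of that build was used.

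The strongest H34-specific myoblast-stage region lay on chr3:76924889-76925595. Its −log10 p of 40.8 was at the 93.2nd percentile of the H34 list. Besides the early times, the lists at 6 and 12 h, H1 and the unedited cells at 48 h held it, and those of H23 and the Myod1 knockout did not. The next was on chr1:194571530-194571914, with a peak at 6 h, in wild-type cells, in H1 and in H23. The widest of the leading 5 spanned 2619 bp of chr3:29788485-29791103 and was found in the same libraries and at 12 h.

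The others were on chr2:76244660-76245394, which had a peak in H23 and the Myod1 knockout and not in wild-type cells at 48 h, and on chr16:17147027-17147582, with a peak in H1 and H23. All 5 had a −log10 p between 33.4 and 40.8. In 2 of these 5 regions wild-type cells at 48 h had no peak, and in 4 of them the Myod1 knockout had none.

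The strongest H34-specific late region was on chr5:147905081-147906817, with a −log10 p of 28.2 and a peak at 6 and 12 h, in H1 and in the Myod1 knockout. A region on chr17:7841271-7842642 followed and also had a peak in wild-type cells at 48 h, H1 and H23. The other 3 lay on chr4:134257632-134257972, chr11:90094347-90095547 and chr15:38003118-38003712. These were weaker within their list than the leading myoblast-stage regions, at the 81.9th to 87.5th percentile against the 90.4th to 93.2nd.

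The order was the reverse in the H3 line, where the late regions were the stronger ones. The first lay on chr1:66969222-66970186, with a −log10 p of 42.5 at the 91.6th percentile of the H3 list and no peak at 6 or 12 h. The second spanned 2421 bp of chr6:72093317-72095737, at 41.8. The others were on chr15:72961793-72962825, chr18:61768469-61769446 and chr7:140184906-140185912. All 5 had a peak in wild-type cells at 48 h, in H1 and in H23, none had one at 6 h, and the one on chromosome 6 alone had one in the Myod1 knockout.

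The strongest H3-specific myoblast-stage region was on chr13:100014490-100015706, with a −log10 p of 30.0, and all 4 remaining 48 h libraries had a peak there. The next were on chr7:151627032-151627436 and chr10:76424359-76424638, both at 23.1. The region on chromosome 10 had no peak in any of those 4 libraries. The last of these were on chr11:68858772-68859016 and chr19:41876758-41877127.

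Some line-specific regions lay in long runs with no shared region between them. Neighbours within 12500 bp were joined, which put 14363 of the 55245 H34-specific regions in 2034 runs of at least 5 and 3608 of the 24124 H3-specific regions in 509. The longest H34 run held 57 regions over 122 kb of chr17:7860707-7982552. Of its regions, H1 had a peak in 41, H23 in 26 and unedited cells in 10 at 48 h, in 24 at 24 h and in 10 at -24 h. It lay downstream, at higher coordinates, of the late H34-specific region on chromosome 17 named above.

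The longest H3 run held 104 regions over 164 kb of chr7:46809879-46973928, with a highest −log10 p of 55.9. None of the 104 had a peak at any time in unedited cells or in the Myod1 knockout, 66 had one in H23 and 9 in H1. The next, of 43 regions on chr6:5656371-5725727, had a peak in H1 in 40 cases. The third, on chr3:67770253-67805268, had 33 regions, 7 of them with a peak in H23 and none in any other library. The H34 runs next in length were of 35 regions on chr11:45016075-45076123 and 34 on chr1:71626077-71692308. Neither had a peak at the 6 times other than 48 h, and 1 region of each had a peak in unedited cells at 48 h. In the run on chromosome 11, H23 had a peak in 31 regions, H1 in 11 and the Myod1 knockout in 7. In the run on chromosome 1, H23 and the Myod1 knockout each had a peak in 1 region and H1 in none. Together the 6 runs held no myoblast-stage region and 3 late ones.

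Domains that appear late were also compared. The rule for them came from an earlier look at these data: wild-type domains at 48 h of at least 5 peaks joined within 12500 bp, none of them overlapping one at -24 or 0 h and at least 50% overlapping one at 72 h. Of the 60 wild-type peaks in the 10 such domains, 45 had a peak in H3 and 31 in H34 (51.7%, or 45.0% with the equal-number H34 list), and H3 was ahead in 6 domains, H34 in none, with 4 equal. The 4037 other domains of at least 5 peaks ran the other way, with 77.1% of their wild-type peaks found in H3 and 84.5% in H34 (80.4% with equal numbers), and H34 ahead in 1685 domains and H3 in 718. Of the 10 late domains 2 lay on chromosome 1. At chr1:136088258-136093782, 5 of 6 wild-type peaks were found in H3 and 1 in H34. At chr1:136172574-136199951, 3 of 11 were found in H3 and none in H34. Outside chromosome 1 the shares over 43 peaks were 86.0% in H3 and 69.8% in H34.

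Chromosome 14 differed from all others and is given apart. It held 1.66% of the bases covered by H34 peaks of −log10 p of at least 4 and 3.33% of those covered by H3 peaks. Over the other 10 libraries its share of the covered bases was 2.52% to 3.66%. The log2 ratio of H34 to H3 share on the other 19 chromosomes ran from -0.21 on chromosome 6 to 0.25 on chromosome 9. Of 3906 regions on chromosome 14, 13.8% were H34-specific and 44.9% H3-specific, so this chromosome alone among the 20 had more H3-specific than H34-specific regions. With its length cut into 10 equal parts, the number of H34 peaks per H3 peak ran from 0.37 in part 9 to 1.07 in part 4, and part 4 alone was above 1. A value of 1 is not the level of the other chromosomes, where H34 had 125492 peaks and H3 98405. Part 4 was also below that level. With the chromosome kept, the ratios of myoblast-stage to late regions were 3.56 and 1.38.

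The remaining chromosomes varied too. H34-specific regions made up 30.8% (X) to 46.8% (chromosome 9) of a chromosome's regions, and H3-specific regions 12.2% (chromosome 5) to 23.5% (chromosome 6). H34-specific regions included more myoblast-stage than late ones on all 19 chromosomes, at a ratio of 1.73 (chromosome 15) to 7.63 (chromosome 9). H3-specific regions did so on 16 of the 19, at a ratio of 0.684 (chromosome 15) to 3.83 (chromosome 18).

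**Figure D5:**
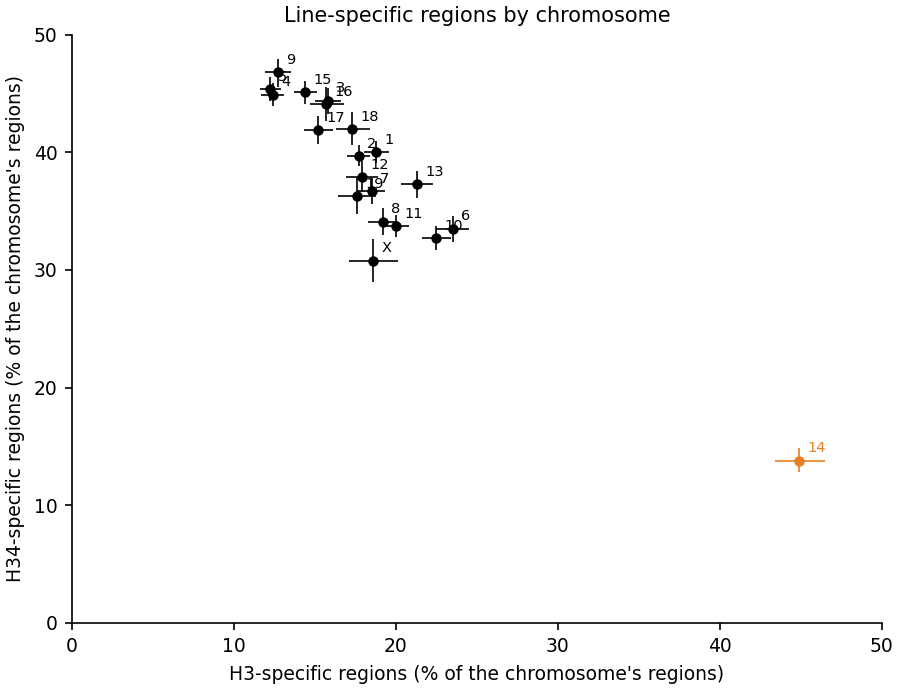
Percentage of each chromosome's regions that were H34-specific (vertical) against the percentage that were H3-specific (horizontal), with 95% Wilson intervals. Chromosome 14 (orange) lies alone at 44.9% H3-specific and 13.8% H34-specific, and the other 19 lie between 30.8% and 46.8% H34-specific.

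The same ratios for other pairs are set beside these values. The pairs share libraries, so they are not independent. For H23 against H3, the ratio of myoblast-stage to late regions was 3.63 in the H23-specific set (1436 to 396) and 0.930 in the H3-specific set (317 to 341). For H34 against H23 it was 2.16 (915 to 424) and 2.44 (741 to 304). The 2 ratios of that pair lay close together. Against H1, the H34-specific ratio was 6.58 and the H1-specific ratio 1.05, and for H3 against H1 they were 6.51 and 1.74.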

How the data were processed

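H3K27ac peak lists of 12 C2C12 libraries served here; the library labelled CRISPR control was not analysed here. Per the submitters' processing notes, MACS2 2.1.0 called the peaks and the build was mm9. No aligner, input library or cutoff is named (not given in the sources used here). Depth is therefore unknown. The deposited lists at 48 h held, for each peak, the authors' score, fold enrichment (a ratio), −log10 p-value and −log10 q-value. The deposited time course lists held a score whose unit is not stated, with minima of 4.00 to 4.01. These values were used within a list, to filter, rank or bin peaks, and not compared in size between libraries.

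Peaks overlapping by 1 base were merged into regions. A region was myoblast-stage or late by its overlap with the lists at -24, 0, 24 and 72 h. Named regions were the 5 of highest −log10 p in each class with no peak in the other line's deposited list, and the 3 longest runs of each line, joined within 12500 bp. The leading regions missing in 1 line and the late domains were described in addition. The members, classes and lists were chosen with earlier results of these data known. Alternatives were −log10 p of at least 3 or 6, −log10 q of at least 3, equal numbers of peaks, 50% overlap, merging within 1 kb, stricter absence, chromosome 14 kept, a time course score of at least 5 and other class times. With no mm9 annotation used, C2C12 marker genes were not checked and the planned gene groups were not run. The region code was tested on 20000 simulated regions and recovered all 18 class counts. Those regions lay apart from each other and overlapped by most of their length, so the test did not cover crowded peaks or marginal overlaps. The code ran on Python 3.11.15 with pandas 2.3.3 and numpy 2.4.6, and matplotlib 3.10.9 drew the figures.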

Additional observations from a re-analysis of the deposited data

How the results depend on the processing

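No paired analysis was possible because each line had 1 library, and for the same reason no replicate could be left out. Of 82 alternatives to 9 values, 34 stayed within the counting interval of the main value, 46 moved beyond it and 2 changed sign. The order of the lines by share was the same in all 13 settings. The H34-specific set had a higher myoblast-stage share and a lower late share than the H3-specific set. By count, at −log10 p of at least 4, the larger H34-specific set held more late regions (501 against 338). H34-specific regions were 40.0% of regions at −log10 p of at least 3, 35.5% at 6, 29.4% with equal numbers, 19.1% with 30000 peaks, 40.4% with 50% overlap, 33.1% with peaks within 1 kb merged and 39.0% with chromosome 14 kept. H3-specific regions were 17.9% at 6, 24.6% with equal numbers, 18.5% with 30000 peaks, 16.8% at −log10 q of at least 3, 17.1% with no peak in the other deposited list, 19.1% with 50% overlap, 11.4% with merging and 18.1% with chromosome 14.

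The myoblast-stage share of H34-specific regions was 3.99% at 6, 3.76% with equal numbers, 6.96% with 30000 peaks, 2.80% with 50% overlap, 9.23% with a peak at either time and 7.95% with 72 h set against -24 h. In H3-specific regions it was 2.31%, 2.01%, 4.79%, 1.63%, 6.21% and 4.16% in that order, and 1.29% with merging. The late share of H34-specific regions was 1.10% at 6, 2.13% with 30000 peaks, 0.809% with 50% overlap, 5.12% with either time and 5.17% with 72 h against -24 h. In H3-specific regions it was 1.98%, 4.10%, 1.22%, 6.57% and 6.93%, and 1.59% with equal numbers. The log2 ratio on chromosome 14 was -1.46 with 30000 peaks and -0.71 by number of peaks.

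The last 2 values were examined with alternatives chosen after seeing the data. H34 exceeded H3 at myoblast-stage time course regions by 16.9 points, and by 15.4 at 6, 11.4 with equal numbers, 5.46 with 30000 peaks and 15.8 with chromosome 14. At late regions the difference of 5.57 points became 2.51 at 6 and changed sign to -1.36 with equal numbers (interval -2.88 to 0.17) and -4.58 with 30000 peaks. Equal numbers shorten the H34 list more than the H3 list by construction. Otherwise the cause was not tested. Unknown depth limits what the weak peaks show.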
